A study of Homo sapiens with 12 samples.

Results

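The levels of 10 Hippo pathway genes were followed in LNCaP cells that had received a precursor of the microRNA miR-135b. These were the kinase genes LATS1, LATS2, STK38 and STK38L, the adaptor genes MOB1A and SAV1, the coactivator gene YAP1, the transcription factor gene TEAD1, the phosphatase gene PTPN14 and the secreted matrix protein gene CCN1. All probes that the platform annotation assigns to these 10 genes were taken, 14 of the 47323 probes on the array. A probe counted as measured where 2 or more arrays had a detection p below 0.01, which held for 10 of these probes, from 9 of the genes, and for 19161 probes of the whole array. LATS1 was the gene without a measured probe.

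LNCaP is an established, adherent human prostate carcinoma line that came from a lymph node metastasis. Cells in normal growth conditions were given 20 nM of a miR-135b pre-miR construct, or 20 nM of a scrambled pre-miR, negative control #1, and total RNA was taken at 12, 24 or 36 h. Each of the 6 combinations of treatment and time was hybridised to 2 arrays, which the series calls biological repeats and numbers 1 and 2. No untransfected cells are among the 12 arrays, so the scrambled control is the reference for every treatment effect. The arrays read messenger RNA, and the level of mature miR-135b after transfection was not analysed here.

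In the Hippo pathway the kinases STK3 and STK4 act with the scaffold SAV1 to activate LATS1 and LATS2, which need MOB1 proteins as coactivators. LATS kinases phosphorylate YAP1 and its relative TAZ (gene WWTR1), which keeps them out of the nucleus. When not phosphorylated, they bind TEAD factors and switch on genes such as CCN1 and CCN2. STK38 and STK38L, also called NDR1 and NDR2, are the closest relatives of the LATS kinases, bind the same MOB1 coactivators and can phosphorylate YAP1 as well. PTPN14 binds YAP1 and restrains it. LATS2 and STK38L have been reported elsewhere as targets of miR-135b.

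A microRNA pairs with messages mainly through its seed, bases 2 to 8 counted from the 5′ end. The mature strands are shown because the treatment supplied this seed; they are RefSeq sequences on GRCh38.p14, with the seed in capitals. The main strand, hsa-miR-135b-5p, lies on the minus strand at chr1:205448361-205448383, and hsa-miR-135a-5p, at chr3:52294270-52294292 on the minus strand, has the same seed. These 2 strands differ at 1 base, C11U, counted from the 5′ end of hsa-miR-135b-5p. The opposite strand of the miR-135b hairpin, hsa-miR-135b-3p, at chr1:205448323-205448344, has another seed.
hsa-miR-135b-5p: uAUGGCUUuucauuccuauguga
hsa-miR-135a-5p: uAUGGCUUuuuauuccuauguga
hsa-miR-135b-3p: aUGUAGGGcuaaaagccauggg

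Values below are normalised log2 signals, and an effect is the mean of miR-135b arrays minus that of scrambled arrays on this scale, with the standard error of limma's fit. Adjusted p-values come from limma with Benjamini-Hochberg adjustment over the 19161 probes, with 0.05 as the threshold. Within a time, the treated and the control array that carry 1 repeat number deviated together from their group means, so a second fit paired them, and its value is given where it changes a call. Between 15967 and 17856 probes were detected per array, replicate arrays correlated at r of 0.9787 to 0.9892 and arrays of different groups at 0.9718 to 0.9923. Of the luminal and LNCaP markers, KLK3, KLK2, TMPRSS2, FOLH1, HOXB13, KRT8 and KRT18 were each detected on all 12 arrays. The basal keratins KRT5 and KRT14, leukocyte PTPRC and CD3E, endothelial PECAM1 and CDH5, fibroblast COL1A2 and DCN, and smooth muscle DES and MYH11 were each detected on 0 arrays, while the fibroblast collagen COL1A1 was detected on 12 and monocyte CD14 on at most 2.

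In the mean of the 3 times, 1 of the 10 probes passed the threshold without the pairing, that of STK38, which fell. Among all 19161 probes 565 passed, or 2.95%, and 1.72% passed by falling. With the pairing, STK38 and CCN1 passed, 2 of 10 probes, against 6.51% of all probes. At an unadjusted p under 0.05 without the pairing there were 3 member probes, those of STK38, PTPN14 and CCN1, beside 14.9% of all probes. With the pairing there were 5, with MOB1A (ILMN_2125562) and TEAD1 added, beside 24.4% of all probes. The median effect of the 9 measured genes, with 1 probe each, was 0.05, beside 0.01 for all probes. Of the 10 probes 4 lay below 0 and 6 above, while 48.4% of all probes lay below 0.

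At single times fewer probes passed. Without the pairing 0 of the 10 probes passed in limma at 12, 24 or 36 h, with 0, 4 and 3 of them at an unadjusted p under 0.05. Of all probes 0%, 0.459% and 0.919% passed at these times, and 4.37%, 9.67% and 11.2% were at an unadjusted p under 0.05. With the pairing 0 passed at 12 h and STK38 alone at 24 and 36 h, against 0.892% and 2.29% of all probes. Between 36 and 12 h, 0 of the 10 probes passed in control cells, where 2 were at an unadjusted p under 0.05, or in miR-135b cells, where 0 were, against 0.0104% and 0.0678% of all probes. At an unadjusted p under 0.05 there were 11.8% of all probes in control cells and 14.7% in miR-135b cells.

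**Figure D1:**
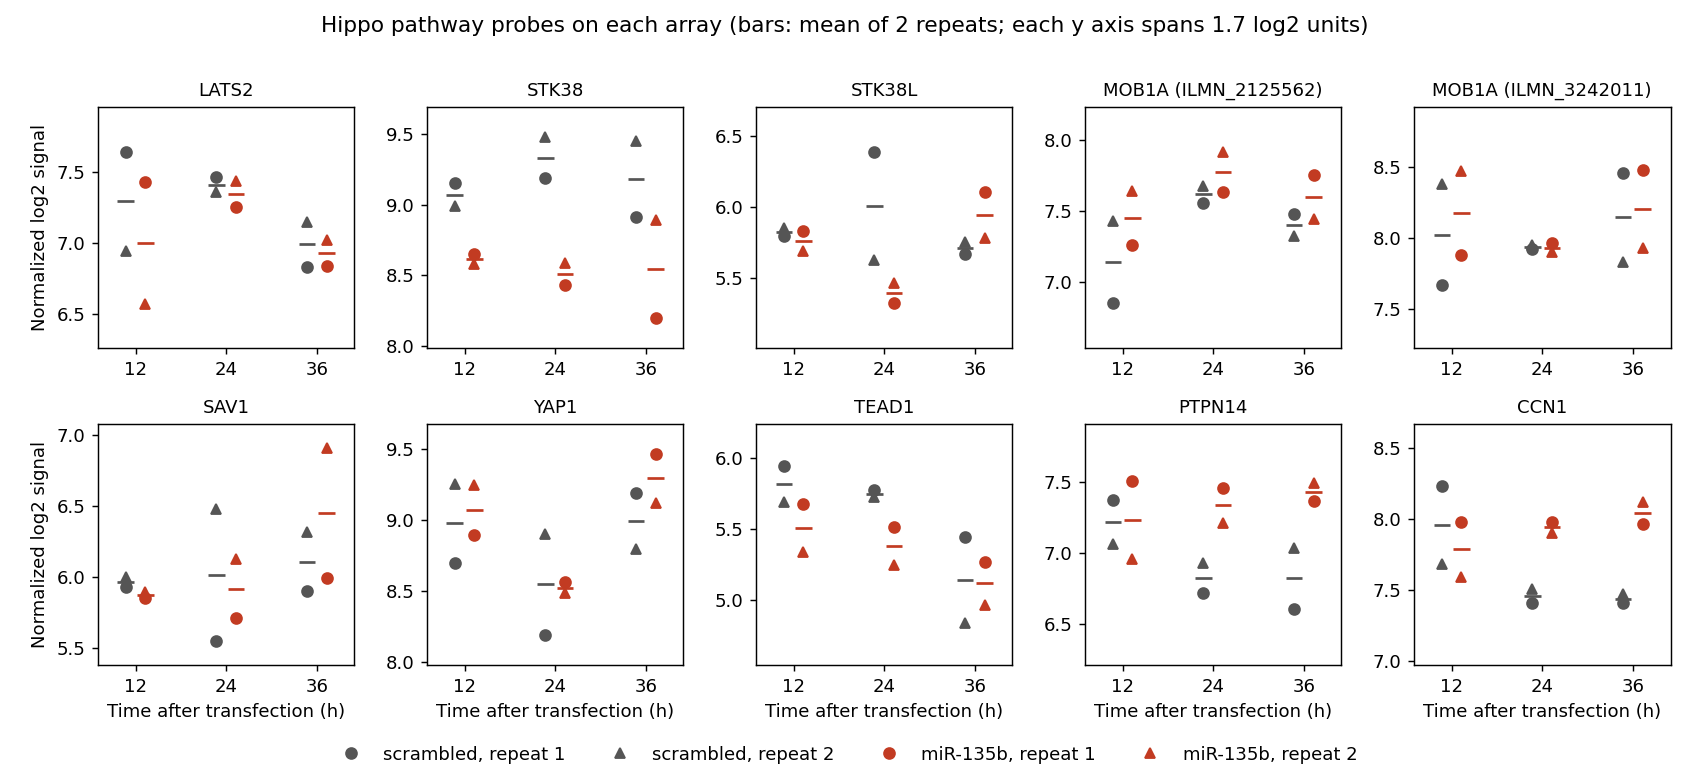
Normalised log2 signal (y axis) of each of the 10 measured probes on each of the 12 arrays, by time after transfection in hours (x axis). Grey symbols are scrambled and red symbols miR-135b arrays, circles are repeat 1 and triangles repeat 2, and bars are means of 2 repeats. STK38 is the panel in which all 6 treated arrays, at 8.20 to 8.89, lie under all 6 control arrays, at 8.91 to 9.47.

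Of the 4 kinase genes, STK38 was lower in miR-135b cells on every array. Its probe, ILMN_2152581, read 9.15 and 8.99 in the control repeats of 12 h, 9.19 and 9.47 at 24 h and 8.91 and 9.44 at 36 h. In miR-135b cells it read 8.65 and 8.58 at 12 h, 8.43 and 8.59 at 24 h and 8.20 and 8.89 at 36 h. No treated array reached the lowest control array, a separation that 1.44% of all probes showed in the same direction, and the treated array was the lower of the pair in 6 of 6 pairs, as for 7.31% of all probes.

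The fall of STK38 averaged 0.63 ± 0.14 on the log2 scale over the 3 times, or 35.6% of the control signal (95% interval of the log2 change -0.95 to -0.32, limma adjusted p = 0.0468). Of the 19161 probes, 132 had a lower mean effect. The arrays read bulk RNA, in which fewer cells with STK38 RNA and less of it per cell cannot be told apart. With the pairing the adjusted p was 0.00504. By time, the effect was -0.45 at 12 h, -0.82 ± 0.24 at 24 h and -0.63 at 36 h, with limma adjusted p of 1.00, 0.268 and 0.358. With the pairing STK38 passed at 24 h (adjusted p = 0.0360) and at 36 h (adjusted p = 0.0437), but not at 12 h (adjusted p = 0.358). No difference between the effects at 12 and 36 h was shown (-0.18 ± 0.35, limma adjusted p = 0.999). Of the control groups 12 h was lowest in mean at 9.07 ± 0.12 (SD, n = 2), followed by 36 h at 9.18 ± 0.38 and 24 h at 9.33 ± 0.20, and these neighbours overlapped. The treated groups, at 8.51 to 8.62, also overlapped one another.

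The unpaired call of STK38 lay close to the threshold. It held in 8 of 9 other settings and was lost without the detection filter, where more probes enter the adjustment (limma adjusted p = 0.0823). Leaving out 1 array kept the effect between -0.75 and -0.52, but the call held in 2 of 12 such fits, those that dropped repeat 2 of miR-135b at 36 h (adjusted p = 0.0168) or repeat 1 of the scrambled control at 36 h (adjusted p = 0.0458). When any one of the other 10 arrays was dropped, limma's adjusted p lay between 0.0715 and 0.130. On the authors' deposited log2 values the effect was -0.54 (limma adjusted p = 0.0176).

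LATS2, the LATS kinase measured here, did not pass. Its probe, ILMN_1703412, was detected on all 12 arrays and read 7.64 and 6.94 in the control repeats of 12 h, 7.46 and 7.35 at 24 h and 6.83 and 7.15 at 36 h. The miR-135b arrays read 7.42 and 6.57 at 12 h, 7.25 and 7.44 at 24 h and 6.83 and 7.02 at 36 h. The 2 treatments overlapped at each time, and the 2 repeats of 12 h lay further apart than any means of the 2 treatments did.

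The mean effect on LATS2 was -0.14 ± 0.17 (95% interval -0.52 to 0.24, limma adjusted p = 0.803, and 0.281 with the pairing), with -0.29, -0.07 and -0.06 at 12, 24 and 36 h. The treated array was the lower in 4 of 6 pairs. Without 1 array the mean effect ranged from -0.28 to 0.00. In both treatments the group mean was highest at 24 h, 7.41 ± 0.08 in control and 7.34 ± 0.13 in treated cells (SD, n = 2), and lowest at 36 h, 6.99 ± 0.23 and 6.92 ± 0.13, and both overlapped with 12 h. The difference between 36 and 12 h did not pass in control (-0.30 ± 0.29, limma adjusted p = 0.758) or in miR-135b cells (-0.07 ± 0.29, limma adjusted p = 0.938).

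STK38L, the other NDR kinase, was dim. Its probe, ILMN_1755792, was detected on 9 arrays, 5 control and 4 treated. The 2 treated arrays of 24 h, at 5.32 and 5.46, were both below detection, while the control arrays of that time read 6.39 and 5.63. At 12 h the probe read 5.80 and 5.86 in control and 5.83 and 5.69 in treated cells, and at 36 h 5.67 and 5.76 against 6.11 and 5.78.

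The groups of STK38L did not overlap at 24 h, with the treated arrays below, which 20.3% of all probes also showed. With each treated array set to no less than the lowest detected signal, the treated mean was 1.23-fold below control. This fold is not a confidence bound, and the effect did not pass (limma adjusted p = 0.406). At 36 h both treated arrays lay above both control arrays, as for 18.5% of all probes. The effects at 12, 24 and 36 h were -0.06, -0.61 and 0.23, and they averaged -0.15 ± 0.13 (95% interval -0.44 to 0.15, limma adjusted p = 0.698). Both probes of LATS1, the other LATS kinase gene, were detected on 0 arrays, with deposited signals of 72.2 to 94.4 and detection p of 0.352 to 0.953, so no effect is given for it.

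**Figure D2:**
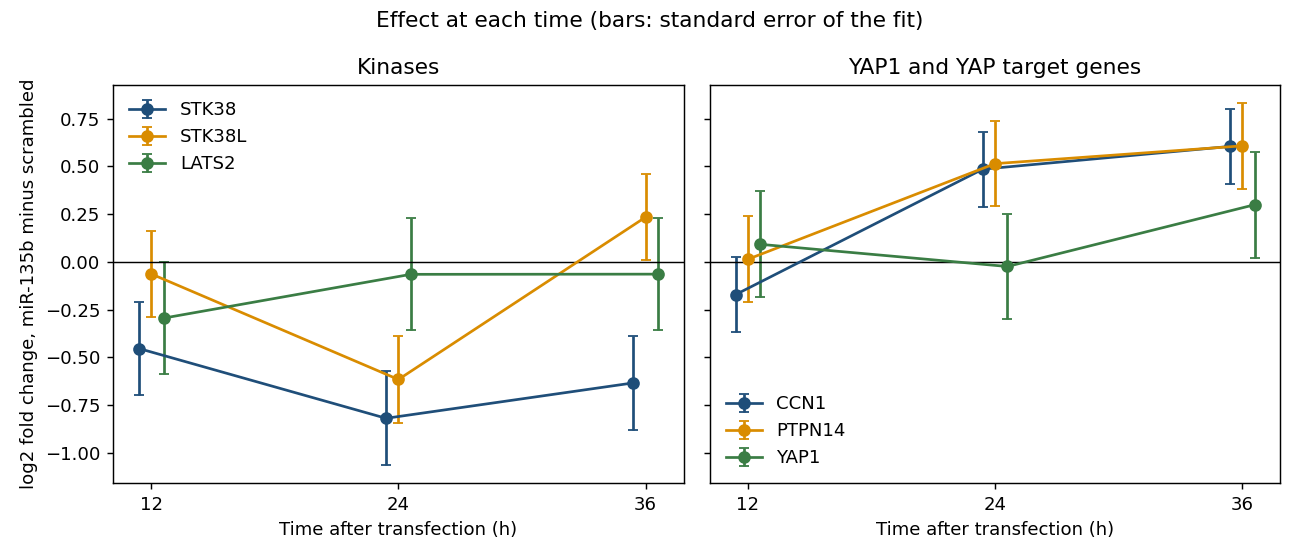
Effect of miR-135b on the log2 scale (y axis, treated minus scrambled) at 12, 24 and 36 h (x axis) for the measured kinase genes (left) and for YAP1, CCN1 and PTPN14 (right). Points are fitted effects and bars 1 standard error; STK38 is below 0 at each time, at -0.45, -0.82 and -0.63, while CCN1 goes from -0.17 to 0.60.

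The adaptor MOB1A, coactivator of both LATS and NDR kinases, had 2 measured probes, each detected on 12 arrays. On ILMN_2125562 control arrays ran from 6.85 through a median of 7.46 to 7.68, and treated arrays from 7.26 through 7.64 to 7.91. The treated array was the higher in 6 of 6 pairs, as for 6.96% of all probes, although the 2 treatments overlapped over all times. On ILMN_3242011 control arrays ran from 7.66 through 7.93 to 8.46 and treated arrays from 7.88 through 7.94 to 8.48, with the treated array higher in 5 of 6 pairs.

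The mean effects on the MOB1A probes were 0.22 ± 0.13 (95% interval -0.07 to 0.51, limma adjusted p = 0.492) and 0.07 ± 0.18 (95% interval -0.33 to 0.47, limma adjusted p = 0.927). Neither passed with the pairing (adjusted p = 0.106 and 0.545). SAV1, the scaffold that joins STK3 and STK4 to LATS kinases, was detected on 10 arrays. Its control arrays ran from 5.55 through a median of 5.97 to 6.48 and its treated arrays from 5.72 through 5.95 to 6.91. At 12 h both treated arrays lay under both control arrays, as for 15.9% of all probes, and the groups overlapped at 24 and 36 h. Its mean effect was 0.05 ± 0.20 (95% interval -0.40 to 0.50, limma adjusted p = 0.957), and it had the widest spread between repeats of the 10 probes, with a moderated SD of 0.35 against a median of 0.20 for all probes.

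YAP1, the coactivator that LATS kinases phosphorylate, was detected on 12 arrays and did not pass. Its probe read 8.70 and 9.25 in the control repeats of 12 h, 8.19 and 8.90 at 24 h and 9.19 and 8.79 at 36 h. In miR-135b cells it read 8.89 and 9.24 at 12 h, 8.56 and 8.48 at 24 h and 9.46 and 9.12 at 36 h. The treatments overlapped at each time, and in both of them the group mean was lowest at 24 h, 8.54 ± 0.50 and 8.52 ± 0.05 (SD, n = 2).

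The mean effect on YAP1 was 0.12 ± 0.16 (95% interval -0.24 to 0.48, limma adjusted p = 0.826). TEAD1, a transcription factor through which YAP1 acts, was near background. Its probe ILMN_1735055 was detected on 3 arrays, all control, and so entered the measured set through control arrays alone, while its other probe was detected on 0. It read 5.95 and 5.69 in the control repeats of 12 h and 5.68 and 5.34 in treated cells, 5.78 and 5.72 against 5.51 and 5.25 at 24 h, and 5.45 and 4.84 against 5.27 and 4.97 at 36 h. Both treated arrays lay under both control arrays at 12 and 24 h, as for 15.9% and 20.3% of all probes, and the groups overlapped at 36 h. With each treated array set to no less than the lowest detected signal, the treated mean was 1.13-fold below control at 12 h. At 24 h it was 1.03-fold below. These folds are not confidence bounds, and neither effect passed (limma adjusted p = 0.9997 and 0.692). Control arrays alone brought the probe in, so the filter favoured lower treated readings. No array of 36 h was above detection. The fitted mean effect was -0.24 (95% interval -0.53 to 0.06, limma adjusted p = 0.457).

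CCN1, a YAP and TEAD target gene, read higher in miR-135b cells at 24 and 36 h. In control cells it read 8.23 and 7.68 at 12 h, 7.41 and 7.51 at 24 h and 7.41 and 7.47 at 36 h. In miR-135b cells it read 7.98 and 7.59 at 12 h, 7.98 and 7.90 at 24 h and 7.96 and 8.12 at 36 h. At 24 and 36 h both treated arrays lay above both control arrays, which 19.9% and 18.5% of all probes also showed, while at 12 h each treated array was below its control.

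The effect on CCN1 was -0.17 ± 0.20 at 12 h, 0.48 ± 0.20 at 24 h and 0.60 ± 0.20 at 36 h, with limma adjusted p of 1.00, 0.468 and 0.256. The mean effect, 0.31 ± 0.11 (95% interval 0.05 to 0.56), did not pass without the pairing (limma adjusted p = 0.235) and passed with it (adjusted p = 0.0450). It rose in the paired fit by 23.6% of the control signal, with the treated array the higher in 4 of 6 pairs. The effect at 36 h exceeded that at 12 h by 0.78 ± 0.28 (limma adjusted p = 0.988, and 0.328 with the pairing). For this contrast limma called 0 of 19161 probes, with 933, or 4.87%, at an unadjusted p under 0.05, or 2237 with the pairing. The same control arrays enter the control time course, in which CCN1 differed by -0.52 ± 0.20 between 36 and 12 h (limma adjusted p = 0.360), while in miR-135b cells the difference was 0.26 ± 0.20 (limma adjusted p = 0.590). In control cells the mean of 12 h, 7.96 ± 0.39 (SD, n = 2), stood above those of 24 and 36 h, 7.46 ± 0.07 and 7.44 ± 0.05, which did not differ beyond their spread.

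PTPN14, which encodes the phosphatase that binds YAP1, showed a like course. Its detected probe, ILMN_1917341, read 7.38 and 7.06 in the control repeats of 12 h, 6.72 and 6.93 at 24 h and 6.61 and 7.04 at 36 h. The treated arrays read 7.51 and 6.96 at 12 h, 7.46 and 7.21 at 24 h and 7.36 and 7.50 at 36 h. Both treated arrays were above both control arrays at 24 and 36 h, as for 19.9% and 18.5% of all probes. The groups overlapped at 12 h, and the treated array was the higher in 5 of 6 pairs.

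The effect on PTPN14 was 0.01 at 12 h, 0.51 ± 0.22 at 24 h and 0.61 ± 0.22 at 36 h, and averaged 0.38 ± 0.13 (95% interval 0.09 to 0.67). It did not pass without the pairing (limma adjusted p = 0.194) or with it (adjusted p = 0.0575). Leaving out 1 array kept the mean between 0.29 and 0.47. The other PTPN14 probe, ILMN_1750240, was detected on 0 arrays.

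**Figure D3:**
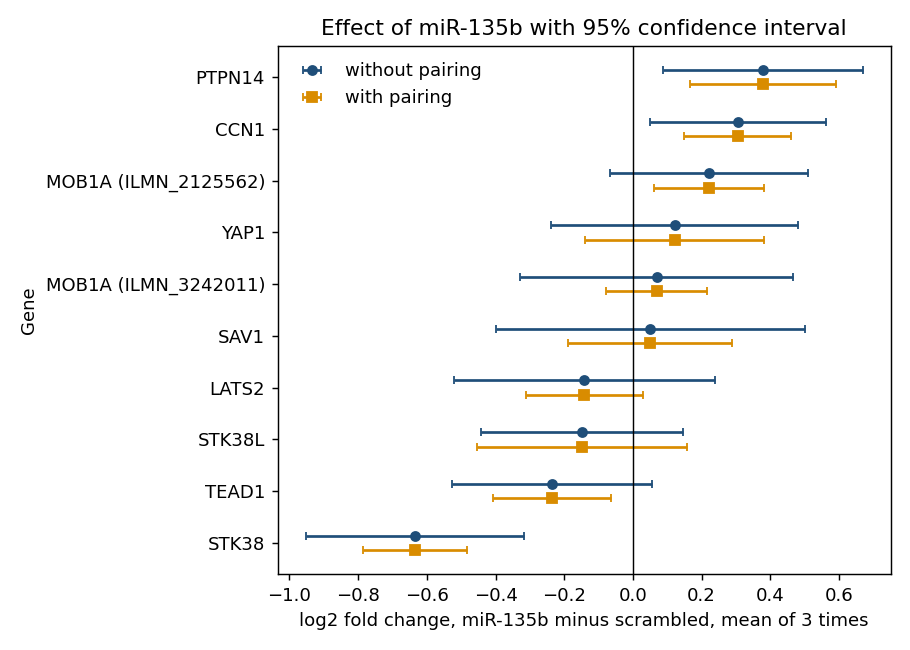
Mean effect of miR-135b over the 3 times on the log2 scale (x axis) for the 10 measured probes (y axis), with 95% confidence intervals without (blue) and with (orange) the pairing of treated and control arrays. The unpaired interval of STK38 runs from -0.95 to -0.32, those of PTPN14 and CCN1 lie above 0, and those of the other 7 probes include 0. With the pairing, the intervals of MOB1A (ILMN_2125562), above 0, and TEAD1, below 0, exclude 0 as well.

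Promoters were read for the motif GGAATG, or CATTCC on the other strand, which TEAD factors are known to bind. In the 250 bases before the start, 11.9% of the 35116 RefSeq promoters held at least 1 match. PTPN14 held 1 match, starting at base -200, and YAP1 held 1, at base -162. The windows of LATS1, LATS2, MOB1A, SAV1 and STK38L held 0. The PTPN14 window, chr1:214551603-214551852 on the minus strand, is printed because this gene and CCN1 followed like courses, and that of CCN2, chr6:131951373-131951622 on the minus strand, because CCN2 is a standard YAP and TEAD target with 3 matches, at bases -169, -104 and -95. Both are on GRCh38.p14 with the matches in capitals. CCN1, STK38 and TEAD1 were not read for the motif.
PTPN14: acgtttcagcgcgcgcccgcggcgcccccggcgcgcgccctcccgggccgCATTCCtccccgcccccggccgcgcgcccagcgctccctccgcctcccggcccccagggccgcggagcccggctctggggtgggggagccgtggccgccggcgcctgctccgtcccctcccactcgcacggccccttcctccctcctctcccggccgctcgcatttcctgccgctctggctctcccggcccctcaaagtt
CCN2: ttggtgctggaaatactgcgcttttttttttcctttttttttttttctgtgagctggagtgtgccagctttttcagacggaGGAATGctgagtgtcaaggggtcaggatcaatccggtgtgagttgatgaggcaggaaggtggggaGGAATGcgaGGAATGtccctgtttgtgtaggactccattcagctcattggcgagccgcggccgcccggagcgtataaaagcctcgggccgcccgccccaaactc

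The 10 genes were set beside 108 other genes listed for the pathway, of which 72 had a measured probe and 32 were on the array but below the detection limit. In the mean of the 3 times limma called none of the genes in the 4 lists of kinases, regulators, coactivators and targets without the pairing. For a gene with several measured probes the probe of highest mean was used. Of all probes 14.9% were at an unadjusted p under 0.05 in this mean, and with the pairing 2.88% passed by rising and 3.64% by falling.

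Of 17 measured kinase cassette genes and relatives, 0 passed with or without the pairing, with 2 at an unadjusted p under 0.05 by limma and a median effect of 0.00. STK3 and STK4, the kinases upstream of LATS, were detected on 12 arrays each and read -0.09 ± 0.10 and 0.05 ± 0.07. MOB1B, the close relative of MOB1A, was detected on 1 array and was not measured. Of 38 upstream and scaffold regulators 0 passed without the pairing, with 3 at an unadjusted p under 0.05, and the median was 0.03. With the pairing CSNK1D rose, the gene of a casein kinase that helps mark YAP1 for degradation. It read 0.33 ± 0.08 (limma adjusted p = 0.0636, and 0.0274 with the pairing). Its 6 treated arrays ran from 10.93 to 11.26 against 10.60 to 10.91 in control. Such an upward separation was shown by 0.924% of all probes. Its other probe read 0.24 and did not pass (limma adjusted p = 0.455, and 0.120 with the pairing). On that probe the 2 treatments overlapped. NF2, an upstream activator of LATS kinases, had 2 measured probes that read 0.18 and -0.13, the second detected on 2 arrays. AMOTL2, which binds YAP1, was detected on 4 arrays and read -0.17.

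Of 7 measured coactivators and TEAD partners 0 passed without the pairing, 0 reached an unadjusted p under 0.05 by limma, and the median was -0.03. RUNX2, a transcription factor that can bind YAP1, read -0.32 (limma adjusted p = 0.608) and passed by falling with the pairing (adjusted p = 0.0386). Its effects at 12, 24 and 36 h were -0.05, -0.14 and -0.77. The last passed with the pairing (limma adjusted p = 0.032), as 1.32% of all probes did by falling. However, this probe was detected on 3 of 12 arrays and its values depend on signal near background. The other RUNX2 probe was detected on 0 arrays. TEAD2 read 0.01, TEAD3 -0.08 and the 2 measured probes of TEAD4 0.16 and -0.04. WWTR1, the gene of TAZ, was detected on 0 arrays.

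Of 16 measured YAP and TEAD targets, CCN1, PTPN14 and LATS2 among them, 0 passed without the pairing. By limma 5 were at an unadjusted p under 0.05, not all of them rising. Of the 16 effects 6 lay below 0 and 10 above, and the median was 0.04. With the pairing 2 rose, CCN1 and IGFBP3, which encodes a binding protein of insulin-like growth factors. IGFBP3 read 0.47 on its brighter probe (limma adjusted p = 0.284, and 0.0125 with the pairing) and 0.49 on the other (0.210, and 0.0144 with the pairing). On the brighter probe its effect was 0.06, 0.47 and 0.87 at 12, 24 and 36 h, and the last passed with the pairing (limma adjusted p = 0.0249), as 0.971% of all probes did by rising. On the other probe the effect was 0.54, 0.40 and 0.52, and that at 36 h did not pass with the pairing (limma adjusted p = 0.0814). GADD45A, a growth arrest and DNA damage gene, read 0.29 on its brighter probe and 0.36 on the other, with paired limma adjusted p of 0.0838 and 0.0400.

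CCN2, the textbook partner of CCN1 as a YAP target, was detected on 2 arrays, both treated, and entered the measured set through them alone. Its control arrays ran from 4.68 to 5.40 and its treated arrays from 4.71 to 6.38, and the fitted effect, which depends on signal near background, was 0.38 (limma adjusted p = 0.565). The other CCN2 probe, ILMN_1699829, was detected on 0 arrays. ANKRD1, another target gene, was detected on 0 arrays.

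**Figure D4:**
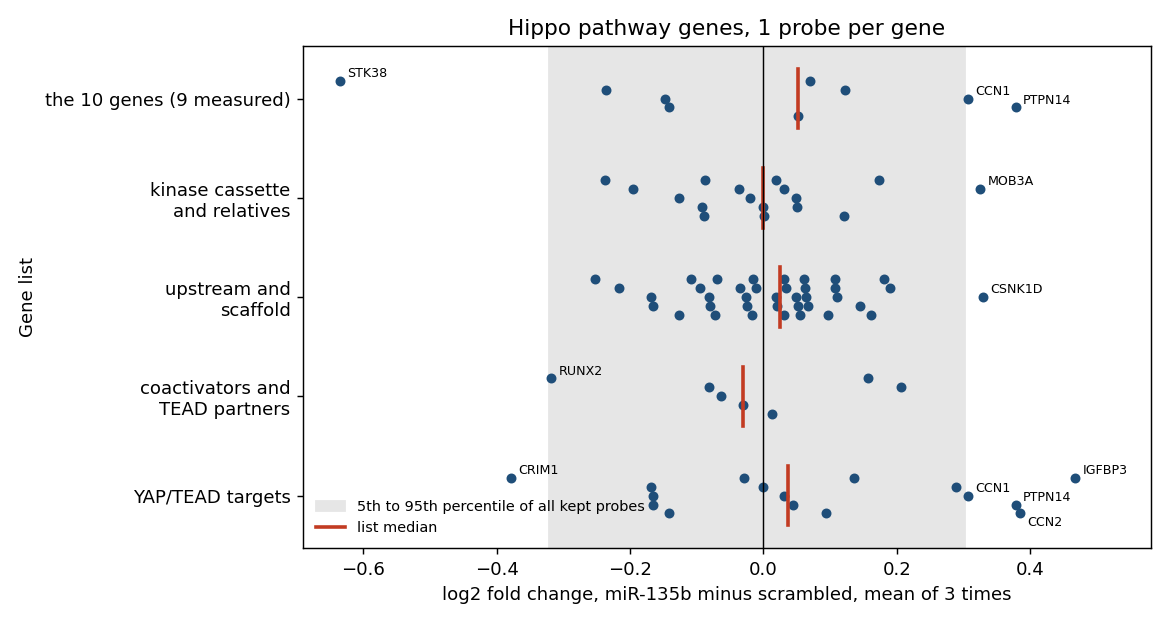
Mean effect of miR-135b over the 3 times on the log2 scale (x axis) for the 9 measured genes and for 4 lists of Hippo pathway genes (y axis), with 1 point per gene, red bars at list medians and grey shading from the 5th to the 95th percentile of all 19161 probes, -0.32 to 0.30. List medians lie between -0.03 and 0.05, and STK38 lies furthest to the left.

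Of 4 listed genes that other work reports as miR-135b targets, LATS2, STK38L, BTRC and LZTS1, 3 were measured. In the mean of the 3 times 0 of these passed in limma with or without the pairing, with 0 at an unadjusted p under 0.05 without it. LATS2 and STK38L are described above, BTRC, a ubiquitin ligase adaptor that acts on YAP1, read 0.03 ± 0.24 and was detected on 7 arrays, and LZTS1 was detected on 0. For comparison, HIF1AN, a reported target outside the pathway, read -0.93 ± 0.12 (limma adjusted p = 0.00391) and was lower in 6 of 6 pairs.

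For 3 of the genes, the genes of most similar course were found by Pearson's r of log2 signal over the 12 arrays among 11237 others. These values are descriptions. They include the treatment difference that the 12 arrays share, changes over time, and the joint deviations of arrays with 1 repeat number. STK38 was closest to TRAF4 (r = 0.974), PNKD (r = 0.962) and ZBED4 (r = 0.946), whose mean effects were -0.67, -1.07 and -0.47. CCN1 was closest to PTPN14 (r = 0.916), RHBDD2 (r = 0.913) and DSTYK (r = 0.911), with mean effects of 0.38, 0.30 and 0.69. LATS2 was closest to ANKRD39 (r = 0.930), BNIP1 (r = 0.901) and RPS21 (r = 0.891), with mean effects of -0.05, -0.11 and -0.07.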

How the data were processed

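Expression was measured on 12 Illumina arrays, and 2 deposited tables were used. One gives each probe's non-normalized intensity (linear scale) beside a detection p-value, per the file headers. The other gives log2 values processed by the authors for these arrays, which served as an alternative. Its columns shared a median of 6.736, and regressed on log2 of the deposited signal the columns had slopes of 0.970 to 1.017. Per the submitters' processing notes, GenomeStudio 2010.2 and lumi 1.8.3 were used, in roles the notes do not state.

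Background was removed by normexp (limma 3.58.1, R 4.3.3), with negative control levels inferred from the detection p-values and an offset of 16, which shrinks the fold changes of dim probes, and signals were quantile normalized and put on the log2 scale. Probes of 1 gene in the platform annotation were named, with symbols updated through a RefSeq table: 30113 probes had 1 name, 8 several and 17202 none. Coordinates are those of GRCh38.p14 and belong to the RefSeq sequences, not to the probes. The 6 group means were fitted with lmFit and eBayes (6 residual degrees of freedom), and tests were two-sided.

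Deviations of treated and control arrays of 1 number correlated at 0.44, 0.44 and 0.55 at the 3 times, each above 0.1, so the numbers were taken to pair arrays within a time (3 residual degrees of freedom with the block). Contrasts between times within a treatment are not given from this paired fit. A probe at background on every array of a group has only a bound there: the brighter group's mean is set against, on each dim array, the probe's own signal or the lowest detected signal, whichever is higher. Alternatives changed the background correction, normalization, offset, detection filter, probes per gene and pairing, or left out 1 array.

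The 10 genes, the pathway lists and the rule for named genes were chosen with earlier results of these data known. All measured probes of the 10 genes are given, and of the lists those genes that passed in the mean or at any time, with or without the pairing, and 14 genes named whatever their values. Precision is limited by the number of arrays, 2 per group.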

Additional observations from a re-analysis of the deposited data

How the results depend on the processing

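In the mean of the 3 times the probe of STK38 kept its direction in every setting run, and its call in 8 of 9 settings and in 2 of 12 fits without 1 array. The call of CCN1 was gained with the pairing alone, and the other 8 probes of the 10 genes passed in none of these settings. The count of these probes was 0 without the detection filter, 2 with the replicate block within each time, and 0 to 1 without 1 array, against 1. At 24 h and at 36 h it was 1 with the replicate block, STK38, against 0. The replicate block changed no other call of the 10 probes.

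Counts over all probes moved more. In the mean they were 565 as reported, 1248 with the replicate block and 299 to 474 without 1 array. At 12 h they were 0 as reported (838 at an unadjusted p under 0.05), 10 without background correction and on the authors' processed values, and 4 with an offset of 50, for probes detected on all 12 arrays or with 1 probe per gene. At 24 h they were 88, with 155 without background correction, 154 on the authors' values, 171 with the block and 0 to 79 without 1 array. At 36 h they were 176, with 310, 308 and 438 in those settings and 7 to 88 without 1 array. Between 36 and 12 h, control cells gave 2, with 18 without background correction and on the authors' values, 1 with an offset of 50 or on probes detected on all arrays, and 0 to 1 without 1 array. In miR-135b cells this contrast gave 13, with 257, 258, 164 and 203 in those settings, 141 with 1 probe per gene, 377 with the block by repeat number alone and 0 to 2 without 1 array. The cause was not tested. The slide as a block was not run, since the files used here name no slide. STK38L, SAV1 and TEAD1 were detected on 9, 10 and 3 of the 12 arrays, so their values rest in part on signal near background.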
